A study of Mus musculus with 6 samples.

Results

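The 10 genes described here encode the enzymes and chaperones that modify, fold and process newly made collagen: the prolyl 4-hydroxylase alpha subunits P4ha1, P4ha2 and P4ha3, the lysyl hydroxylases Plod1, Plod2 and Plod3, the prolyl 3-hydroxylase P3h1 with its partner Crtap, the collagen chaperone Serpinh1 and the procollagen C-proteinase enhancer Pcolce. They were taken by gene name from the 30914 genes of the deposited expression table, and all 10 were found, with 1 row each. RNA was sequenced from the heart tissue of wild-type male C57BL/6J mice. Their stated age of 8 weeks is, in the methods of the study, the age at which the mice were procured. Pathological cardiac hypertrophy had been induced in all 6 mice with angiotensin II (Ang II), delivered from osmotic pumps for 4 weeks at 1 μg/kg/min. The 3 mice of the Ang II group received no further compound by the labels, and the 3 mice of the Ang II + Tec group also received tectochrysin (Tec), a plant flavonoid, at 5 mg/kg during the last 2 weeks. Both groups were therefore exposed to Ang II, and no heart without Ang II was analysed here, so the values compare Tec with its absence during Ang II exposure and not disease with health.

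Collagen chains are modified while they enter the endoplasmic reticulum. Prolyl 4-hydroxylases form the hydroxyproline that keeps the triple helix stable at body temperature, lysyl hydroxylases form the hydroxylysine from which sugar attachments and covalent cross-links are built, and the P3h1 and Crtap complex, which also contains the prolyl isomerase Ppib, hydroxylates single prolines. Serpinh1, also called HSP47, binds the folded triple helix until it leaves the endoplasmic reticulum, and Pcolce acts outside the cell, where it increases the removal of the C-propeptide by Bmp1. Fibroblasts are the main collagen-producing cells of the heart, and their deposition of collagen is the basis of cardiac fibrosis, which accompanies hypertrophy under Ang II.

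The unit of all levels is FPKM, fragments counted per unit of transcript length and scaled to all mapped fragments, as the authors deposited it for each gene and library. The absolute depth is not known from FPKM, and the depth relative to the median library ranged from 0.968 to 1.3. The summed FPKM of 7 cardiomyocyte markers lay between 8446 and 10317 in every library. The single markers were less even, and with Tec 3 of the 7 were lower and 4 higher on average. Actc1 ranged from 2763 FPKM in Ang II + Tec replicate 3 to 4734 FPKM in Ang II replicate 1. Myh6 ranged from 678 FPKM in Ang II replicate 2 to 1491 FPKM in Ang II + Tec replicate 2. The libraries of the Ang II group did not form a tight cluster. On the first principal component of log2(FPKM + 1), to which 68.7% of the variance belonged, the scores of Ang II replicates 1 and 2 were -31.2 and -46.0, whereas that of Ang II replicate 3 was 19.2 and lay among those of the Ang II + Tec libraries, 28.6, 2.39 and 27.0. Because the labels place Ang II replicate 3 in the Ang II group, it was kept there, and values without it are given beside the main results.

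To show the sequence around the transcription starts of the members with the most different behaviour, the promoter windows of 4 genes are printed here, each from 250 bases before to 50 bases after the RefSeq start site on GRCm38.p6, read 5′ to 3′ on the strand of the gene. Serpinh1 and Pcolce had the largest differences between the groups, P4ha2 was the only member with higher values in the Ang II + Tec group, and P4ha1 is its closest relative. Capitals mark the core of the hypoxia response element (ACGTG or GCGTG, or the reverse complement of either), which was searched because the prolyl and lysyl hydroxylases need oxygen and are known targets of hypoxia-inducible factors.
Serpinh1, chr7:99353190-99353489, minus strand: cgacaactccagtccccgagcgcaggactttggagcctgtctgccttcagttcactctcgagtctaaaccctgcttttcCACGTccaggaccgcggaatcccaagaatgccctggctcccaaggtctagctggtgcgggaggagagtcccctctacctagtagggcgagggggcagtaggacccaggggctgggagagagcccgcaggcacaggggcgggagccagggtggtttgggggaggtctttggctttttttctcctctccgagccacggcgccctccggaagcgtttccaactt
Pcolce, chr5:137611355-137611654, minus strand: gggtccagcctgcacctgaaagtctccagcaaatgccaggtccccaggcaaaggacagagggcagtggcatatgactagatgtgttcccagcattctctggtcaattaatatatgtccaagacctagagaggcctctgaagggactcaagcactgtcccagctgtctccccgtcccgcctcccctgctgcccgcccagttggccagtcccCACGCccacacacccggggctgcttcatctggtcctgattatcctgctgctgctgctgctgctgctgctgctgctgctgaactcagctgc
P4ha1, chr10:59323046-59323345, plus strand: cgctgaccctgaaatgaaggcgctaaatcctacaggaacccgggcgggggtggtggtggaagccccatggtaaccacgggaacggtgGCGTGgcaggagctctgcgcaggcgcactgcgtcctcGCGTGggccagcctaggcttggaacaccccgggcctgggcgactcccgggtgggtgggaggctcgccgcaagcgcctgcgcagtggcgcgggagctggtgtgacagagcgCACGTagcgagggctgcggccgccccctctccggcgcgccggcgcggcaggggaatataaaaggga
P4ha2, chr11:54100674-54100973, plus strand: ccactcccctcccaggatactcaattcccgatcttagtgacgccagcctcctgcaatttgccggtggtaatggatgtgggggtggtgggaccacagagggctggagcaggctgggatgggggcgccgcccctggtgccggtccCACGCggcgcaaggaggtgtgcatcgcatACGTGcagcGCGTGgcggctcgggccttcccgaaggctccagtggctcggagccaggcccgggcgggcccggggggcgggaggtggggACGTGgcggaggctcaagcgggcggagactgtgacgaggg
The Pcolce and P4ha2 windows start from RefSeq sites that lie 2380 and 829 bases from the start of the gene in the deposited table, so these are windows of an alternative start. The other 2 windows use the same site as the table.

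The windows of P4ha1 and P4ha2 held 3 and 4 matches to the hypoxia core and were equally rich in G and C (70.3% each), although the log2 fold changes of the 2 genes had opposite signs. Serpinh1 and Pcolce held 1 match each. RefSeq windows were found for 9 of the 10 members, without Plod2. P3h1 had 2 windows, so the members had 10. These windows held 53.3% to 70.3% G and C, and the shares over all windows below were not matched for this. At least 1 hypoxia core was present for 8 of these 9 genes (9 of 10 windows), P4ha3 being without, and in 43.8% of all 32851 windows of the reference. The GC box (GGGCGG, both strands) was present for 8 of the 9 genes (9 of 10 windows), Plod3 being without, and in 35.7% of all windows. The CCAAT box was present for P3h1 and Plod3 (3 of 10 windows) and in 37.4% of all windows. The TATA box (TATAAA) was present for Plod1, Crtap and P4ha1 (3 of 10 windows) and in 13.6% of all windows. The paired heat shock unit (GAANNTTC or TTCNNGAA) was found for Plod1 and P4ha2 and in 15.1% of all windows, and the window of the heat shock protein gene Serpinh1 did not hold it. These matches describe letters in the windows and are not binding sites.

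Across the members, levels in the Ang II + Tec group were mostly below the mean of the Ang II group, and none of the differences passed the test. Genes were tested on log2(FPKM + 1) with limma and Benjamini-Hochberg adjustment when they reached 0.5 FPKM in at least 3 of the 6 libraries, which 13089 genes and 9 of the 10 members did. P4ha3 did not reach this level. A gene was called when its adjusted p was under 0.05 and its log2 fold change was 1 or more in size. By this criterion 0 of the 9 members and 21 of the 13089 tested genes (0.160%) were called, and the lowest adjusted p of a member was 0.221. Of the 9 members, 8 had a negative and 1 a positive log2 fold change. At an unadjusted p under 0.05, 5 members were lower (Serpinh1, Crtap, Plod1, Plod2 and Pcolce), where 16.5% of all tested genes were lower, and 1 member was higher (P4ha2), where 2.09% of all tested genes were higher. The 3 values of one group lay entirely below the 3 of the other for 1 member with lower values (Plod1, background 18.9%) and entirely above them for 1 member with higher values (P4ha2, background 2.90%).

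Most genes shared the downward direction on this scale. The median log2 fold change was -0.62 over the 9 members and -0.17 over all tested genes, of which 80.0% had a negative value. When the libraries were scaled by the median of ratios, the median of all genes became 0.0020, 49.6% of genes had a negative value, and the median of the members was -0.42. On that scale the same 8 members had negative values and P4ha2 a positive one, and 1073 genes were lower and 963 higher at an unadjusted p under 0.05, compared with 2165 and 274 without scaling. The members lower at an unadjusted p under 0.05 were then 3 (Pcolce, Plod2 and Crtap, background 8.20%) in place of 5, and P4ha2 was the 1 member that was higher (background 7.36%). The lower members without overlap were then Pcolce and Plod2 (background 10.8%) in place of Plod1, and P4ha2 was again the higher one (background 10.9%).

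**Figure D1:**
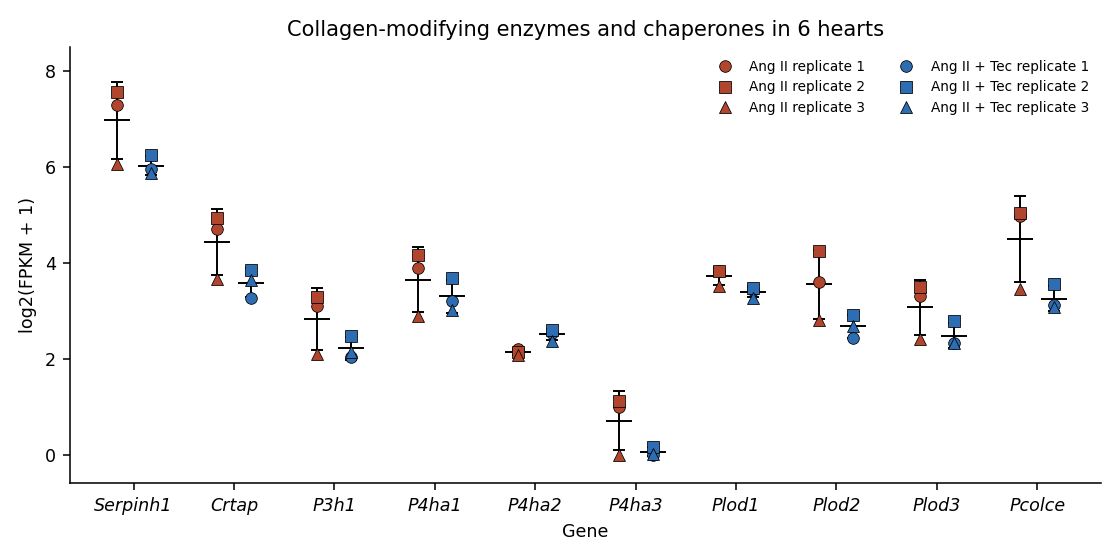
Levels of the 10 genes as log2(FPKM + 1) in each library of the Ang II group (red) and the Ang II + Tec group (blue), with the mark shape giving the replicate, and the bar and whiskers the mean ± SD of the 3 libraries on this scale. Ang II replicates 1 and 2 are the 2 highest libraries for 9 of the 10 genes, and P4ha2 shows the opposite order of the groups.

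The plot of the levels by library shows an arrangement that recurred for most members. In 9 of the 10 genes, P4ha2 being the exception, Ang II replicates 1 and 2 were the highest libraries. Ang II replicate 3 lay within the range of the Ang II + Tec libraries for 7 genes, below it for 2 (P4ha1 and P4ha2) and above it for 1 (Plod1). Among the Ang II + Tec libraries, replicate 2 was the highest for all 10 genes.

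Serpinh1 (chr7:99345376-99353239, ENSMUSG00000070436) was by far the most abundant member and accounted for 52.3% to 58.7% of the summed FPKM of the 10 genes in every library. Its level was 155.26, 189.71 and 66.17 FPKM in Ang II replicates 1, 2 and 3 and 61.48, 75.19 and 58.04 FPKM in Ang II + Tec replicates 1, 2 and 3. Ang II replicates 1 and 2 stood well above all other libraries, and Ang II replicate 3 fell between Ang II + Tec replicates 1 and 2, so the groups overlapped. The group means were 137 ± 63.8 and 64.9 ± 9.07 FPKM (SD, n = 3 each), with a log2 fold change of -0.94 (SE 0.36, 95% interval -1.80 to -0.09, adjusted p = 0.248 by limma). In whole tissue such a difference cannot tell fewer cells of a type from less RNA per cell, which holds for every gene below.

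Crtap, the non-catalytic partner that keeps the prolyl 3-hydroxylase complex together, was the next of the helper proteins of the endoplasmic reticulum. It lies at chr9:114375134-114390675 (ENSMUSG00000032431) and was measured at 25.11, 29.84 and 11.63 FPKM with Ang II alone and 8.61, 13.46 and 11.49 FPKM with Ang II + Tec. The highest Ang II + Tec library exceeded Ang II replicate 3, and the groups overlapped. The log2 fold change was -0.85 (SE 0.33, adjusted p = 0.250). P3h1 (chr4:119232915-119248975, ENSMUSG00000028641), the enzyme of the complex, was measured at 7.56, 8.82 and 3.29 FPKM with Ang II alone and 3.08, 4.58 and 3.40 FPKM with Ang II + Tec. Ang II replicate 3 was again inside the range of the Ang II + Tec libraries, and the log2 fold change was -0.62 (SE 0.31, adjusted p = 0.309). Crtap exceeded P3h1 in each library, by a ratio of FPKM of 3.32, 3.38 and 3.53 with Ang II alone and 2.80, 2.94 and 3.38 with Ang II + Tec. Ppib, the third protein of the complex, stayed at a ratio to Crtap of 1.23 to 1.32 with Ang II alone and of 1.14 to 1.62 with Ang II + Tec, while Crtap itself differed by a factor of 3.47 between its highest and lowest library.

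Among the prolyl 4-hydroxylases, the alpha subunits that carry the active site, the log2 fold changes of the major and the minor gene had opposite signs. P4ha1 (chr10:59323296-59373304, ENSMUSG00000019916) was measured at 13.84, 17.02 and 6.39 FPKM with Ang II alone and 8.20, 11.92 and 7.14 FPKM with Ang II + Tec. Ang II replicate 3 was the lowest of all 6 libraries, and the log2 fold change of -0.34 (SE 0.34, 95% interval -1.14 to 0.45, adjusted p = 0.551) had the highest p of the members. P4ha2 (chr11:54100095-54131662, ENSMUSG00000018906) was measured at 3.60, 3.39 and 3.22 FPKM with Ang II alone and 4.84, 5.10 and 4.18 FPKM with Ang II + Tec. Each Ang II + Tec library lay above each Ang II library, with means of 3.40 ± 0.19 and 4.71 ± 0.47 FPKM (SD, n = 3 each). Its log2 fold change was 0.37 (SE 0.12, 95% interval 0.10 to 0.64, adjusted p = 0.221), and the difference was not called.

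P4ha2 also varied least among the mice of the Ang II group, where its SD was 0.19 around a mean of 3.40 FPKM. Its log2 fold change stayed between 0.32 and 0.44 when each library was left out in turn, and the lowest adjusted p among these 6 fits was 0.0708. Scaling by the median of ratios, which removes the shift common to most genes, gave 0.56 (adjusted p = 0.160). The groups of P4ha2 remained without overlap in each of these fits.

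P4ha3 (chr7:100285520-100319699, ENSMUSG00000051048), the third alpha subunit, was near the lower end of detection. It was measured at 0.99 and 1.18 FPKM in Ang II replicates 1 and 2 and was listed at 0 in Ang II replicate 3. In the Ang II + Tec group it was listed at 0 in replicate 1 and measured at 0.12 and 0.01 FPKM in replicates 2 and 3, where 0.01 is the smallest value above 0 in the table. The 2 libraries with a level near 1 FPKM were those in which most other members were highest.

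**Figure D2:**
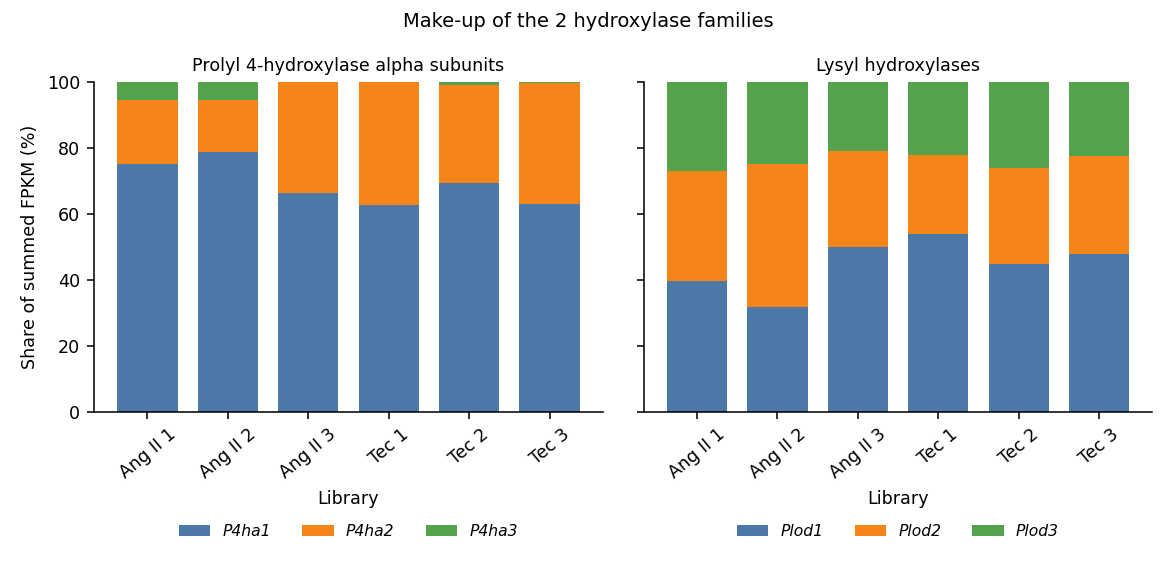
Share of each gene in the summed FPKM of its family (percent of the 3 genes), by library, for the prolyl 4-hydroxylase alpha subunits (left) and the lysyl hydroxylases (right). P4ha1 holds the largest share of its family in every library and the orange P4ha2 band is smallest in Ang II replicates 1 and 2, while Plod2 reaches its largest share, 43.5%, in Ang II replicate 2.

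Because FPKM are given per length, the make-up of the families could be compared within each library. The plot of family shares gives both families. P4ha1 made up 75.1%, 78.8% and 66.5% of the summed alpha subunits with Ang II alone and 62.9%, 69.5% and 63.0% with Ang II + Tec. The mean share differed by -8.32 percentage points, with p = 0.2 in an exact two-sided permutation test, in which 3 against 3 libraries cannot give a p below 0.1. Without Ang II replicate 3 the difference was -11.8 percentage points. The share of P4ha2 was 19.5%, 15.7% and 33.5% with Ang II alone and 37.1%, 29.8% and 36.9% with Ang II + Tec. Ang II replicate 3 resembled the Ang II + Tec libraries in this share as well, through its low P4ha1 and not through P4ha2, which was lowest there. P4hb, the protein disulfide isomerase that serves as the beta subunit, exceeded the summed alpha subunits by a ratio of 6.67 to 7.53 with Ang II alone and 5.12 to 6.93 with Ang II + Tec.

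The lysyl hydroxylases were lower on average in the Ang II + Tec group, to differing extents. Plod2 (chr9:92542223-92608428, ENSMUSG00000032374), which hydroxylates the lysines of the collagen telopeptides that form stable cross-links, was measured at 11.06, 18.00 and 6.04 FPKM with Ang II alone and 4.44, 6.56 and 5.39 FPKM with Ang II + Tec. Ang II replicate 2 was higher than all other libraries, whereas Ang II replicate 3 lay between the Ang II + Tec values, and the log2 fold change was -0.87 (SE 0.34, 95% interval -1.66 to -0.08, adjusted p = 0.248). Plod1 (chr4:147909753-147936767, ENSMUSG00000019055), which acts on lysines of the triple helix, was measured at 13.15, 13.19 and 10.42 FPKM with Ang II alone and 9.88, 10.09 and 8.68 FPKM with Ang II + Tec. Without scaling it was the only member with lower values whose groups did not overlap, by a gap of less than 1 FPKM between Ang II replicate 3 and Ang II + Tec replicate 2. The log2 fold change of Plod1 was small, -0.32 (SE 0.13, adjusted p = 0.257), and it became -0.11 with overlapping groups after scaling by the median of ratios, where the median of all genes was 0.0020.

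Plod3 (chr5:136987019-136996648, ENSMUSG00000004846), the family member that also transfers glucose and galactose to hydroxylysine, was measured at 8.96, 10.23 and 4.33 FPKM with Ang II alone and 4.03, 5.88 and 4.06 FPKM with Ang II + Tec. Its log2 fold change was -0.59 (SE 0.29, adjusted p = 0.303), and the groups overlapped. Plod3 shares part of its locus with Znhit1 on the opposite strand (9.16 to 13.41 FPKM), and since the sources used here do not say whether counting used the strand, part of its signal is uncertain. The genes that overlap Plod2, Crtap and Pcolce did not exceed 0.43 FPKM in a library. Plod2 made up 33.3%, 43.5% and 29.1% of the summed lysyl hydroxylases with Ang II alone and 24.2%, 29.1% and 29.7% with Ang II + Tec, a difference of -7.60 percentage points (p = 0.3, exact two-sided permutation test), which was -10.7 without Ang II replicate 3. Plod1 was the largest component in all libraries except Ang II replicate 2, where Plod2 was.

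Pcolce, the extracellular enhancer of C-propeptide removal (chr5:137605103-137613784, ENSMUSG00000029718), had the largest negative log2 fold change of the members. Its level was 30.64, 32.05 and 10.01 FPKM with Ang II alone and 7.70, 10.74 and 7.45 FPKM with Ang II + Tec. Ang II replicates 1 and 2 were close to each other and well above the rest, and Ang II + Tec replicate 2 slightly exceeded Ang II replicate 3. The means were 24.2 ± 12.3 and 8.63 ± 1.83 FPKM (SD, n = 3 each) and the log2 fold change was -1.25 (SE 0.41, 95% interval -2.21 to -0.28, adjusted p = 0.228). Bmp1, the proteinase that Pcolce assists, differed less, so the ratio of Bmp1 to Pcolce was 0.278, 0.317 and 0.408 with Ang II alone and 0.455, 0.505 and 0.519 with Ang II + Tec, with no overlap. This ratio was chosen after its values were seen and was not tested.

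**Figure D3:**
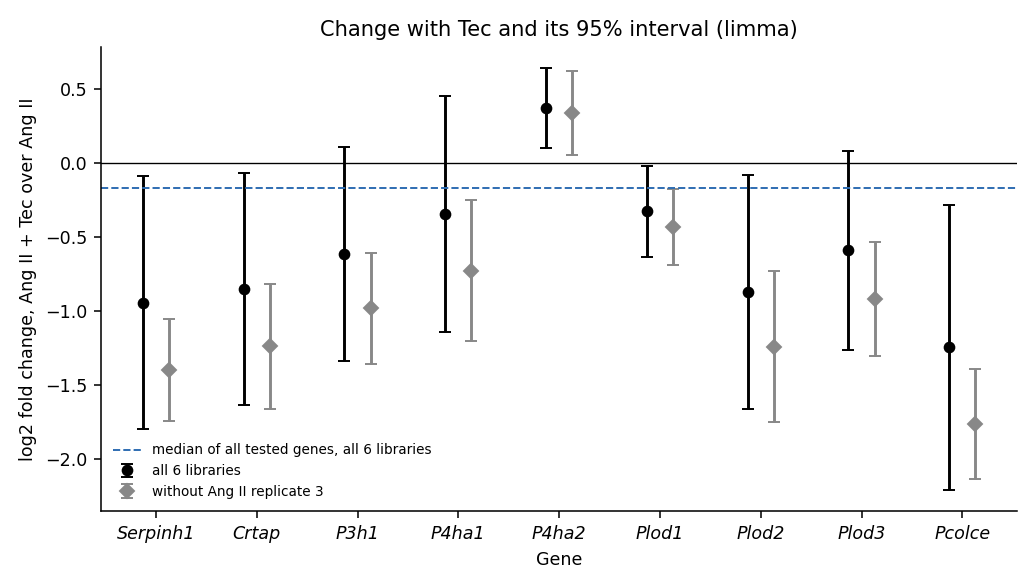
Log2 fold change of the Ang II + Tec group over the Ang II group on log2(FPKM + 1) with its 95% interval from limma, for the 9 tested genes, with all 6 libraries (black) and without Ang II replicate 3 (grey), and the median of all tested genes as a dashed line at -0.17. Without Ang II replicate 3 the 8 negative values are farther from 0, Pcolce reaching -1.76, and P4ha2 stays at 0.34.

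Members were called in 1 of the 6 fits that left out a library, and in the other 5 of these fits 1 to 3 members had an unadjusted p under 0.05 in place of 6. P4ha2 was higher in each of these 5, where 146 to 233 of the 13089 genes were higher. Without Ang II replicate 1 or Ang II + Tec replicate 1 or 3, 0 members were lower (background 6.29%, 7.68% and 7.60%). Pcolce was lower without Ang II replicate 2 (background 7.64%), and Pcolce and Crtap were lower without Ang II + Tec replicate 2 (background 16.4%). Without Ang II replicate 3, 8 of the 9 members had an adjusted p under 0.05 in the negative direction, which 26.2% of all tested genes also had, and 4 members (Serpinh1, Crtap, Plod2 and Pcolce) met the full criterion, as did 557 of the 13089 genes (4.26%). The log2 fold changes were then -1.76 for Pcolce (adjusted p = 0.00154), -1.40 for Serpinh1 (adjusted p = 0.00226), -1.24 for Plod2 (adjusted p = 0.00970), -1.24 for Crtap (adjusted p = 0.00598) and -0.73 for P4ha1 (adjusted p = 0.0357). P4ha2 had 0.34 with an adjusted p of 0.0708. The groups of all 9 tested members were then without overlap, 8 in the negative direction, where the background was 53.7%, and 1 in the positive direction, where the background was 6.84%. With Ang II + Tec replicate 2 left out instead, 6 members were lower and 1 was higher without overlap (background 44.3% and 3.61%), and 0 were called. With array weights, 7 members had an adjusted p under 0.05 (27.1% of all tested genes) and 4 were called (3.99%). Leaving out Ang II replicate 2, which held the highest values of most members, instead moved the log2 fold changes toward 0, to -0.65 for Serpinh1, -0.97 for Pcolce and -0.08 for P4ha1. The plot of log2 fold changes sets the values with and without Ang II replicate 3 side by side.

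The substrates of these enzymes varied far more than the enzymes themselves. Col1a1, Col1a2 and Col3a1, the chains of type I and type III collagen, summed to 292.0, 408.2 and 34.95 FPKM with Ang II alone and 19.34, 36.78 and 19.27 FPKM with Ang II + Tec. The 10 enzymes and chaperones summed to 270.2, 323.4 and 121.5 FPKM with Ang II alone and 112.3, 143.6 and 109.8 FPKM with Ang II + Tec. As the plot of both sums shows, the ratio of enzymes and chaperones to collagen chains was 0.925, 0.792 and 3.48 with Ang II alone and 5.80, 3.91 and 5.70 with Ang II + Tec.

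All Ang II + Tec libraries had a higher ratio than all Ang II libraries. The mean log2 ratio differed by 1.89 (0.45 ± 1.17 against 2.34 ± 0.32, SD, n = 3 each), with p = 0.1 in an exact two-sided permutation test, the smallest p that this design allows. Without Ang II replicate 3 the difference was 2.56, and with the sum of 8 fibrillar collagen chains in place of the 3 it was 1.78. The individual chains had log2 fold changes of -2.75 for Col1a1 (SE 0.90, adjusted p = 0.228), -2.33 for Col1a2 (SE 0.81, adjusted p = 0.231) and -2.72 for Col3a1 (SE 0.80, adjusted p = 0.220), and none was called. Of the 8 fibrillar chains listed, 6 were tested, and all 6 were lower at an unadjusted p under 0.05, where the background was 16.5%, with a median log2 fold change of -2.28. Of these 6 chains, 5 were called without Ang II replicate 3 (background 4.26%), and the median was then -3.30.

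**Figure D4:**
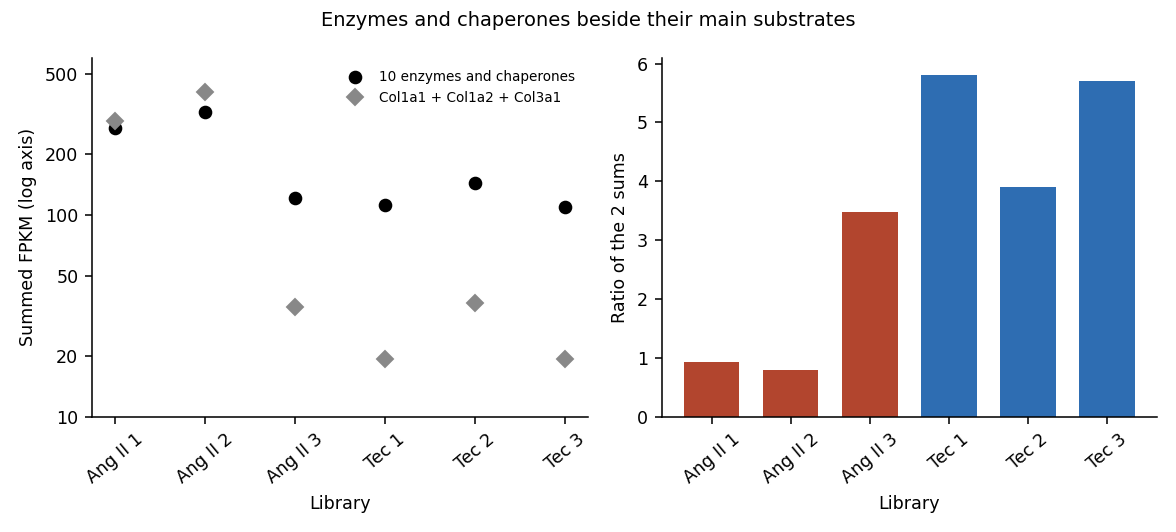
Left, summed FPKM of the 10 enzymes and chaperones (black) and of Col1a1, Col1a2 and Col3a1 (grey) in each library on a log axis. Right, the ratio of the first sum to the second in the Ang II (red) and Ang II + Tec (blue) libraries, which is below 1 only in Ang II replicates 1 and 2 and lies between 3.91 and 5.80 in the libraries with Tec.

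The rest of the pathway was read from 3 lists of 32 genes, of which 30 were found by name and 27 were tested. None was called, and 25 had negative and 2 positive log2 fold changes, with a median of -0.50 beside -0.17 for all tested genes. At an unadjusted p under 0.05, 6 of the 27 were lower and 0 higher, where the background was 16.5% lower and 2.09% higher. Without overlap between the groups, 3 of the 27 were lower and 0 higher (background 18.9% and 2.90%). In the fit without Ang II replicate 3, 20 of the 27 were lower at an unadjusted p under 0.05 (background 39.3%), and 8 were called (background 4.26%).

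Among the 13 tested partners in the endoplasmic reticulum, 3 were lower at an unadjusted p under 0.05. Fkbp10, a prolyl isomerase that works with Plod2 in telopeptide hydroxylation, had the lowest p of the pathway. It was measured at 14.14, 17.13 and 9.22 FPKM with Ang II alone and 4.65, 6.88 and 5.92 FPKM with Ang II + Tec, without overlap, and its log2 fold change was -1.06 (SE 0.23, adjusted p = 0.185). P3h4, a non-catalytic relative of P3h1 that joins Plod1 in a complex, had -0.57 (SE 0.18, adjusted p = 0.223), also without overlap, and Ppib had -0.85 (SE 0.32, adjusted p = 0.242) with overlap. The only positive values of the 3 lists were 0.09 for Tmem38b (adjusted p = 0.644) and 0.01 for Mia2 (adjusted p = 0.955), which are named because of their sign.

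Of the 7 listed propeptidases and enhancers, 4 were tested, and all 4 had negative values. Adamts2, which removes the N-propeptide, had the largest at -1.56 (SE 0.54, adjusted p = 0.229), and Adamts3 did not overlap between the groups at -0.11 (adjusted p = 0.474). The 10 tested genes of procollagen export and its transcription factors had a median of -0.17, equal to that of all genes at this precision. The coat proteins Sec24d (-0.68, SE 0.26, adjusted p = 0.249) and Sec13 (-0.56, SE 0.23, adjusted p = 0.260) were the 2 with an unadjusted p under 0.05.

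General chaperones of the endoplasmic reticulum, which serve all secreted proteins, were read as a separate list. Over 17 tested genes the median log2 fold change was -0.19, with 14 negative and 3 positive values and with 1 gene lower (Sdf2l1, -0.89, adjusted p = 0.235) and 1 higher (Herpud1, 0.65, adjusted p = 0.243) at an unadjusted p under 0.05, where the background was 16.5% lower and 2.09% higher. After omission of Ang II replicate 3, 7 of the 17 were lower and 1 higher at an unadjusted p under 0.05 (background 39.3% lower, and 566 of 13089 genes higher) and 2 were called (background 4.26%). In some general chaperones Ang II replicate 2, Ang II replicate 1 and Ang II + Tec replicate 2 were the highest libraries, in this order, as for Serpinh1. An example, chosen after its values were seen, is the disulfide isomerase Pdia3. It was measured at 54.72, 76.77 and 26.45 FPKM with Ang II alone and 28.42, 38.36 and 28.58 FPKM with Ang II + Tec. Unlike for Serpinh1, Ang II replicate 3 was its lowest library. Hspa5, the main chaperone of this compartment, was measured at 66.73, 74.08 and 49.79 FPKM with Ang II alone and 53.83, 73.88 and 53.34 FPKM with Ang II + Tec. The ratio of Serpinh1 to Hspa5 was accordingly 2.33, 2.56 and 1.33 with Ang II alone and 1.14, 1.02 and 1.09 with Ang II + Tec, without overlap, and this ratio was also chosen after its values were seen and was not tested.

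**Figure D5:**
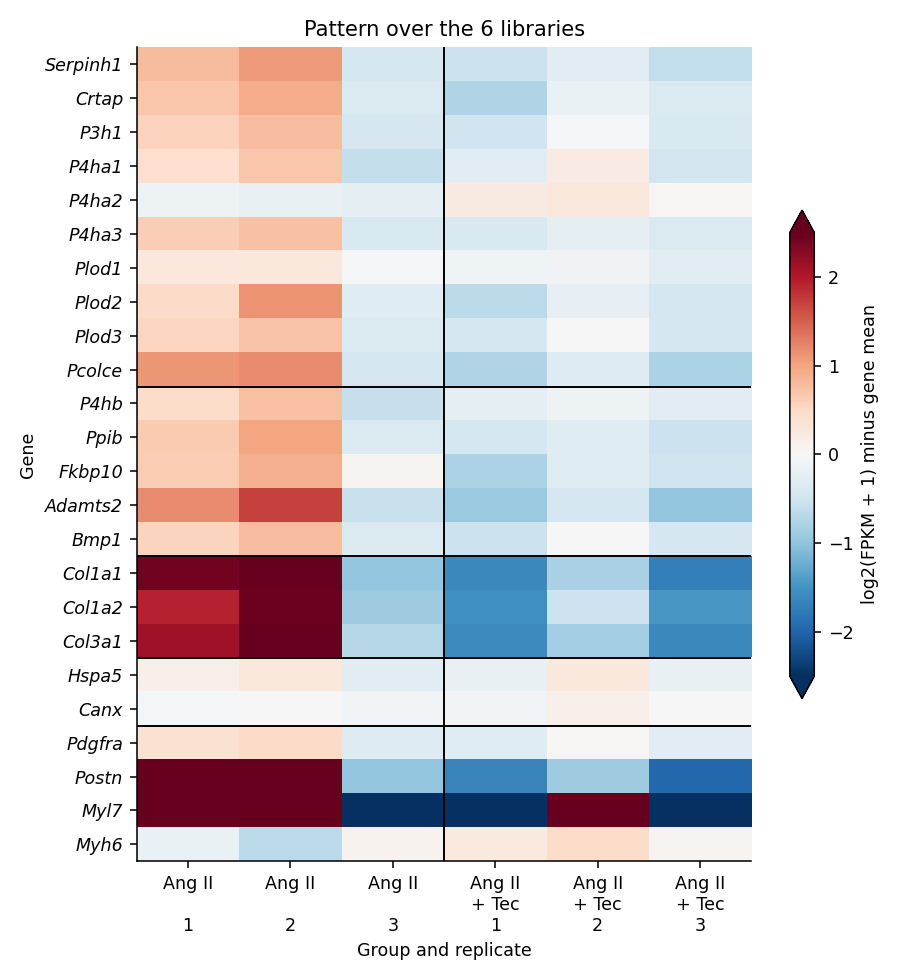
Deviation of log2(FPKM + 1) from the mean of each gene over the 6 libraries (colour, red above and blue below the mean, with values beyond 2.5 at the end colours). Lines separate the 10 genes described here, other collagen-processing genes, type I and III collagen chains, general chaperones, and markers of fibroblasts (Pdgfra), activated fibroblasts (Postn), atria (Myl7) and cardiomyocytes (Myh6), and Ang II replicates 1 and 2 are red for 9 of the 10 genes.

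Markers of several cell types also differed between the libraries, as the map of deviations by library shows. Of 8 fibroblast markers, 7 had negative log2 fold changes, the median was -0.87 and 2 were lower at an unadjusted p under 0.05 (background 16.5%). Their summed FPKM ranged from 406 to 896 with Ang II alone and from 463 to 868 with Ang II + Tec, where Gsn, the 1 marker with a positive value, made up 605.64 FPKM of the highest sum. For activated fibroblasts it was 6 of 8 markers (background 16.5%), and the sum ranged from 79.7 to 529 and from 49.0 to 158 FPKM, with Postn at 129.69, 178.16 and 10.53 FPKM with Ang II alone and 6.13, 11.27 and 4.84 FPKM with Ang II + Tec. All 6 tested macrophage and leukocyte markers were lower at an unadjusted p under 0.05 (background 16.5%), with sums of 203 to 415 FPKM with Ang II alone and 143 to 157 FPKM with Ang II + Tec. When Ang II replicate 3 was omitted, 5 of the 8 fibroblast, 7 of the 8 activated fibroblast and 4 of the 6 macrophage and leukocyte markers were called (background 4.26%). The part of these cells in the levels of the 10 genes was not tested.

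The 6 libraries also differed in atrial markers. Myl7, the atrial myosin light chain, was measured at 418.96, 332.29 and 1039.78 FPKM in Ang II replicates 1 and 2 and Ang II + Tec replicate 2, was listed at 0 in Ang II replicate 3 and Ang II + Tec replicate 1, and was at 1.58 FPKM in Ang II + Tec replicate 3. The sum over 6 atrial markers ranged from 2.63 to 867 FPKM with Ang II alone and from 2.46 to 1633 FPKM with Ang II + Tec, with Myl7, Sln and Bmp10 at 0 in at least 1 library. The 3 libraries with high atrial markers were also the highest of their group for all 10 members, in the Ang II group as in the Ang II + Tec group. Adipocyte markers (5 genes) and valve and cartilage-like markers (6 genes) were also highest in these 3 libraries. The adipocyte markers summed to 13.56, 37.64 and 1.21 FPKM with Ang II alone and 0.32, 101.48 and 3.44 FPKM with Ang II + Tec, and the valve and cartilage-like markers to 11.13, 10.45 and 0.83 FPKM and to 0.33, 16.12 and 3.69 FPKM. The labels do not say which part of the heart was taken, and the extraction protocol they quote speaks of adipose tissue. The part of these tissues in the levels of the 10 genes was not tested beyond the fit that follows. With the atrial marker score as a covariate, an alternative chosen after seeing the data, the log2 fold changes were -0.80 for Serpinh1, -1.07 for Pcolce and 0.39 for P4ha2, and the lowest adjusted p of a member was 0.127.

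The 5 genes outside the set whose pattern over the 6 libraries was nearest to the mean pattern of the 9 tested members were Gm13456, Stt3a, App, Cnpy2 and Kirrel. The root mean square difference from the mean pattern on the log2 scale was 0.0351 for the pseudogene Gm13456, 0.0381 for Stt3a, a catalytic subunit of the oligosaccharyltransferase, 0.0397 for App, the amyloid precursor protein, 0.0430 for Cnpy2 and 0.0451 for Kirrel. These patterns were compared over 6 libraries only.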

How the data were processed

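Poly(A) RNA from 6 hearts, 3 with Ang II alone and 3 with Ang II + Tec, was sequenced from both ends, on a NovaSeq by the labels and a HiSeq by the methods of the study. The authors trimmed the reads and deposited 1 table of FPKM, rounded to 2 decimals, for 30914 genes. The submitters' processing notes name HISAT2 2.0, StringTie 1.3.0, Bowtie 0.12.2 and mm8, without their roles. The gene coordinates equal those of GENCODE M21 on GRCm38 for 27947 of 30832 shared genes (90.6%), including all members except P4ha2, whose end differs, so coordinates are given on GRCm38. The strand setting of the counting is not given in the sources used here. Depth is known only as a relative value, read from the spacing of low FPKM in 4294 short genes of 1 transcript.

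From these values log2(FPKM + 1) was computed, which understates the fold change of low genes, and genes with 0.5 FPKM in at least 3 libraries were fitted with limma 3.58.1 (eBayes with trend) in R 4.3.3, without covariates, with Benjamini-Hochberg adjustment over all tested genes. Shares and ratios were compared by exact permutation tests. The fit was tested on simulated data. Alternatives changed the pseudocount, filter, scaling, replicate block, variance trend and library weights or left out each library in turn. Named genes were the 10 members, pathway genes at an unadjusted p under 0.05 or without overlap between the groups (up to 6 a list), the 5 genes with the nearest pattern, and Col1a1, Col1a2 and Col3a1. The members and lists were chosen with earlier results of these data known. The list of ascorbate-binding genes, the covariate of atrial markers and the ratios without a test were chosen after values were seen. Promoter windows are from RefSeq on GRCm38.p6. Figures were drawn with matplotlib 3.10.9.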

Additional observations from a re-analysis of the deposited data

How the results depend on the processing

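Of the 153 values of the 9 tested members under 17 alternatives, 153 kept their direction. What changed was how many passed a threshold, and this count moved with each library that was left out. The count of called genes (21 of 13089) became 3 with no filter on low FPKM, 522 with array weights, whose estimation stopped before convergence, and 13 with the atrial marker score as a covariate, which was chosen after seeing the data. Leaving out each library in turn gave 2 to 557 calls, the highest without Ang II replicate 3. In the same fits, 1 to 9 members had an unadjusted p under 0.05, where 823 to 5149 of all tested genes were lower and 146 to 566 higher. Groups did not overlap for 2 to 9 members, where 2607 to 7023 of all tested genes were lower and 472 to 895 higher. The count was 9 in the fit that omitted Ang II replicate 3 (background 53.7% lower and 6.84% higher). It was 7 in the fit that omitted Ang II + Tec replicate 2, where 44.3% of all tested genes were lower and 3.61% higher without overlap. Scaling to the same FPKM sum without mitochondrial genes left 1 member without overlap, P4ha2, which was higher. Of the 13089 tested genes, 425 were then higher and 2039 lower without overlap. With array weights 7 members had an adjusted p under 0.05, from 0.0271 to 0.0366, as had 27.1% of all tested genes, and 4 were called (3.99% of all tested genes). The cause of these changes was not tested. The median log2 fold change of the members was -0.38 when Ang II replicate 2 was omitted and -0.98 when Ang II replicate 3 was omitted, the lowest and highest in size over the alternatives.

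The labels number the mice 1 to 3 in each group without saying that a number pairs them. Deviations of same-numbered libraries from their group means correlated at -0.04, 0.43 and 0.38 across genes. Those of differently numbered libraries correlated at -0.44 to 0.23. The numbers were not taken as pairs in the main fit because the labels do not state a pairing, and these correlations do not exclude one. With the replicate block 22 genes and 0 members were called, and the lowest adjusted p of a member was 0.118 by limma. At an unadjusted p under 0.05, 7 members were then lower (22.9% of all tested genes) and 1 was higher (314 of 13089 genes). The differences in share of P4ha1 and Plod2 and in the ratio to collagen kept their sign in all alternatives, at p = 0.25, 0.5 and 0.25 with the replicate block in exact permutation tests whose smallest p for 3 pairs is 0.25. Because absolute depth is unknown, no counting interval could be given, and P4ha3 stayed below the level required for a test.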

Other observations

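Prolyl and lysyl hydroxylases need iron, oxygen and ascorbate. In the annotation of the deposited table, 7 of the 10 genes carry the terms for L-ascorbic acid binding and iron ion binding (the 3 prolyl 4-hydroxylase subunits, the 3 lysyl hydroxylases and P3h1). The first term is carried by 19 genes of the table. Genes of the wider pathway lists, which hold the P3h1 relatives P3h2 (log2 fold change -0.32) and P3h3 (-1.04), were left out here. The 10 further genes with this term were listed and tested, a list made after values were seen. None of these 10 was called, and their median log2 fold change was -0.14, beside -0.17 for all tested genes and -0.62 for the members. At an unadjusted p under 0.05, 2 of the 10 were lower (background 16.5%), and 3 were lower without overlap between the groups (background 18.9%). Egln3, a prolyl hydroxylase that marks hypoxia-inducible factors for degradation, was measured at 26.36, 21.89 and 17.03 FPKM with Ang II alone and 11.42, 12.28 and 12.16 FPKM with Ang II + Tec. These groups did not overlap, and the log2 fold change was -0.79 (SE 0.16, adjusted p = 0.180 by limma). Dbh, which makes noradrenaline, had -0.58 (SE 0.15, adjusted p = 0.201) without overlap. Egln2, a relative of Egln3, had -0.29 (adjusted p = 0.299), also without overlap, and Egln1 had 0.09 (unadjusted p = 0.492 by limma) with overlap.

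Of 12 tested genes that hypoxia is known to induce, 3 were lower at an unadjusted p under 0.05, each without overlap between the groups, where 16.5% of all tested genes were lower at this p and 18.9% were lower without overlap. They were the glycolytic enzyme Pgk1 (-0.44, SE 0.15, adjusted p = 0.229), Egln3 and Ankrd37 (-0.60, SE 0.12, adjusted p = 0.169). The median over the 12 was -0.09, and Vegfa had 0.08 (adjusted p = 0.744). Basement membrane collagen, which the same enzymes modify, had a median log2 fold change of -0.41 over 6 chains, beside -2.28 over 6 fibrillar chains. Some of the basement membrane chains were near 1 FPKM or below. Over the 3 with a mean of at least 1 FPKM the median was -0.80, and the fibrillar median stayed at -2.28 with this filter. Col4a1 was measured at 51.55, 73.78 and 27.44 FPKM with Ang II alone and 25.55, 23.95 and 19.46 FPKM with Ang II + Tec, without overlap, and had -1.01 (SE 0.33, adjusted p = 0.224). Col4a2 had -0.80 (SE 0.30, adjusted p = 0.240). Without Ang II replicate 3, 2 of the 6 chains were called, as were 4.26% of all tested genes. The difference between the 2 kinds of collagen was not tested.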
